A study of Mus musculus with 8 samples.

Results

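The window described here is the stretch of mouse chromosome 4 that extends 20 Mb to either side of the array probe for Gm12695, a predicted mouse gene. Its members are the probes other than controls whose position in the scanner output (mm9) starts between 76390578 and 116390637 on chromosome 4, whether or not a gene name is attached to them. This gave 682 of the 55681 probes on the array. Of these, 404 carried a gene symbol, for 258 genes, and 278 carried none. The nameless set held 199 probes for large intergenic non-coding RNAs (lincRNAs), named by the interval they tile, and 79 probes known only by a transcript or probe identifier. Distances are from the start of the Gm12695 probe, and "before" and "after" mean lower and higher coordinates.

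Total RNA from the striatum of male mice aged 4 weeks was hybridised to Agilent arrays in one colour, with 4 arrays of R6/2 mice and 4 arrays of WT controls. R6/2 is a single transgenic line that carries exon 1 of the human huntingtin gene with an expanded CAG repeat, under the human huntingtin promoter, in addition to both mouse Htt alleles. The arrays lay on 1 slide and were scanned once, with all WT arrays in the first column of the slide and all R6/2 arrays in the second, so that column and genotype cannot be told apart. The 75th percentile of the processed signal was 434 to 486 per array, 61.5% to 67.8% of probes were well above background and 0 spots were saturated. The labels give no strain background and no other allele or agent. The samples are named as replicates, and whether they are different mice is not stated. The p-values below therefore speak only of the spread among these 8 samples.

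A transgene injected into an egg enters the genome at one place, often as several joined copies, and the insertion can break or delete the sequence it enters. It can also place a promoter next to host genes. The R6/2 transgene has been mapped to chromosome 4 within Gm12695, and line-specific expression around such a site is a known caution when a transgenic line is compared with its wild-type littermates. Genes that lie near an insertion also tend to be inherited with it, so that alleles of a founder strain can stay linked to the transgene across a stretch of chromosome.

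The probes that bear on the site itself are the Gm12695 probe (chromosome 4, 96390578 to 96390637, minus strand), its nearest neighbour A_55_P2128060 (96388645 to 96388704, plus strand, no gene named), and the first tested probes on the other side, which are a lincRNA probe (97106956 to 97107015, plus strand) and NAP111903-1 (97187920 to 97187979, minus strand). Their sequences are shown because the values at Gm12695 and its neighbours are readings of what these 60 bases bind. Each is written from 5′ to 3′ as deposited, and capitals mark the longest run of bases, read on either strand, that is also found in a probe elsewhere on the array. Exon, intron and UTR positions on mm9 were not used here.
A_55_P2128060: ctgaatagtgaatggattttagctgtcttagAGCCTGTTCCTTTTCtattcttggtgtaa
Gm12695: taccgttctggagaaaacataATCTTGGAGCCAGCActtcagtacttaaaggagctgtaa
lincRNA at 0.716 Mb: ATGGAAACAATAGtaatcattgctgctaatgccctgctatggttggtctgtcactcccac
NAP111903-1: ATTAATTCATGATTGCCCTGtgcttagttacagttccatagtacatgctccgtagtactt
The longest shared run of the Gm12695 probe was 15 bases, found in 2 other probes, for Tet3 and for a lincRNA on chromosome 13. The neighbour also shared 15 bases at most, with a Tle1 probe, the lincRNA probe 13 and NAP111903-1 20, the last with an Hnrnpc probe. The Gm12695 probe was 41.7% G and C, the same as the median of the window.

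The Gm12695 probe was bright on every R6/2 array and at background on every WT array. Its processed signal was 197.8, 163.3, 168.7 and 174.4 on R6/2 arrays 1 to 4, against 2.65, 2.38, 2.48 and 2.08 on WT arrays 1 to 4. On the normalized scale, log2 of the signal relative to the 75th percentile of its array, these were -1.27, -1.52, -1.36 and -1.41 in R6/2 and -7.48, -7.55, -7.45 and -7.87 in WT. The genotypes lay far apart, with group means of -1.39 ± 0.10 and -7.59 ± 0.19 (SD, n = 4 each).

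Because WT was below background, only a bound can be given for Gm12695. Each WT array was set to the dimmest signal that its software still counted as well above background, -5.54 to -5.15. With that limit, Gm12695 was at least 14.8-fold higher in R6/2. Brighter WT signals were sometimes not counted, such as -4.88 for ENSMUST00000145411 on WT array 3. A higher limit would give a smaller bound, so the bound for Gm12695 depends on this choice. The fitted log2 difference was 6.20 ± 0.11 (SE, n = 4 per genotype), with an adjusted p of 2.5e-07 by limma after Benjamini-Hochberg adjustment over all 35121 tested probes. It was 2.15 ± 0.07 with normexp background correction, which adds an offset to every signal, and kept its call there. By adjusted p and by the size of the rise, Gm12695 ranked 1 of all tested probes on the array. It was well above background on 4 R6/2 arrays and 0 WT arrays, so it became testable through R6/2 alone. Its SE, p and rank set R6/2 against WT values at background and are no separate support for the difference. In the authors' deposited table it is listed as up, with a fold of 74.0 and an adjusted p of 1.21e-04. The window was centred on this probe because of the transgene site, with its signal already known, so its difference is described here as the reference for what surrounds it.

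A pattern of all 4 R6/2 arrays and 0 WT arrays well above background occurred in 33 probes of the whole array (0.0593%), and Gm12695 was the 1 such probe in the window. The opposite pattern occurred in 21 probes of the array (0.0377%) and in 0 of the window. Short of that, 3 probes of the window were detected on 4 R6/2 arrays and 1 WT array, for Itgb3bp, Cyp4x1 and Cyp4a10, and 1 was detected on 4 WT arrays and 1 R6/2 array, for Spata6. All 4 lay 3.04 Mb or more from Gm12695.

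The nearest neighbour, 1.93 kb before Gm12695 and on the opposite strand, did not show this. Its processed signal was 23.0, 25.7, 33.2 and 35.2 in R6/2 and 23.9, 19.0, 26.1 and 24.6 in WT, well above background on all 8 arrays. R6/2 arrays 3 and 4 were above every WT array, while arrays 1 and 2 lay within the WT range. The log2 difference was 0.31 ± 0.18 (SE, n = 4 per genotype; limma adjusted p = 0.430), with a 95% interval of -0.10 to 0.72. With normexp background correction it was 0.096.

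Before the site lies a cluster of Cyp2j genes, which encode cytochrome P450 enzymes that oxidise arachidonic acid and other fatty acids. None of its 7 tested probes was called, against 1.51% of all tested probes. The Cyp2j9 probe, 0.155 Mb before, read 2.11, 2.19, 2.27 and 2.20 in R6/2 and 2.16, 2.02, 2.94 and 2.32 in WT on the normalized log2 scale. WT array 3 stood above the rest and the R6/2 values lay inside the WT range, for a difference of -0.17 ± 0.18 (limma adjusted p = 0.697). The sign turned to 0.03 without WT 3.

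Cyp2j6 had 2 tested probes, about 0.2 Mb before the site. The nearer, at 0.198 Mb, read -0.75, -0.75, -0.70 and -0.81 in R6/2 and -0.91, -0.99, -1.06 and -0.77 in WT. Only WT array 4 reached into the R6/2 range, and the difference was 0.18 ± 0.08 (limma adjusted p = 0.303). The other differed by 0.00 ± 0.32, with WT array 1 at -1.04 and the other WT arrays from -2.66 to -2.39. Its sign turned to -0.05 with normexp background correction. Cyp2j8, 0.279 Mb before, differed by 0.03 ± 0.12 and a Cyp2j13 probe, 0.678 Mb before, by 0.13 ± 0.10. The other tested probe of Cyp2j13 had the opposite sign, at -0.16. Members of this cluster are close in sequence, and probes may bind more than 1 of them. Over the cluster, 11 probes covered 7 genes, 7 probes were tested, 4 differences were positive and 3 negative, and the median was 0.00.

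After the site, few probes lie between Gm12695 and Nfia. The lincRNA probe at 0.716 Mb was dim, well above background on 3 arrays of each genotype, and read -4.997, -4.97, -5.06 and -5.43 in R6/2 and -4.16, -5.01, -5.49 and -4.79 in WT. The genotypes overlapped, with a difference of -0.25 ± 0.26 (limma adjusted p = 0.670). It was -0.020 without WT 1, -0.46 without WT 3 and -0.15 without R6/2 4. The NAP111903-1 probe at 0.797 Mb was bright, at 3.14, 3.08, 2.93 and 3.02 in R6/2 and 2.92, 2.84, 2.75 and 2.91 in WT.

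Every R6/2 value of NAP111903-1 lay above every WT value, by a small margin, and the difference was 0.19 ± 0.08 (limma adjusted p = 0.259). E130114P18Rik at 0.844 Mb differed by -0.06 ± 0.09, a sign that turned to 0.00 on the positive side with quantile normalization. D4Ertd681e at 1.17 Mb differed by 0.07 ± 0.11. The nearest probe of Nfia, a nuclear factor I transcription factor needed for glial development, lay at 1.29 Mb and differed by 0.12 ± 0.18. The other tested probe of Nfia had the opposite sign, at -0.23. None of these was called.

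**Figure D1:**
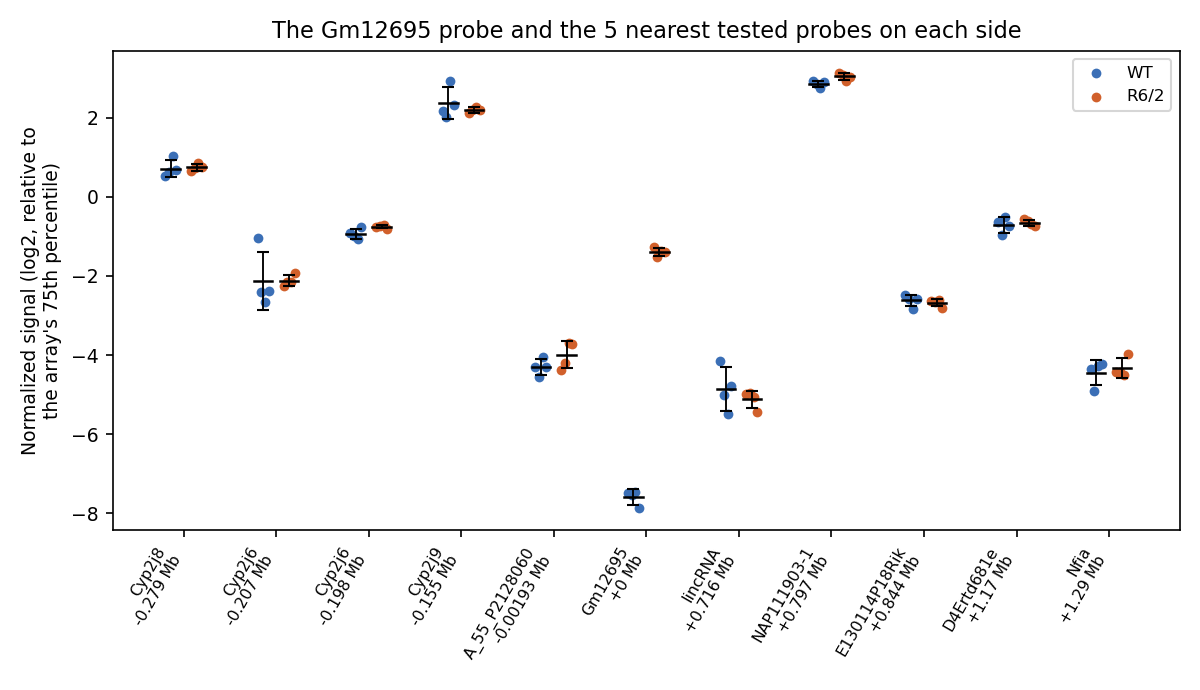
Normalized log2 signal (relative to the 75th percentile of each array) of the Gm12695 probe and the 5 nearest tested probes on each side, with distance from the site under each name. Points are arrays (4 WT, 4 R6/2), lines the mean and bars the SD. At Gm12695 the means are -1.39 and -7.59, and at the 10 neighbours the fitted differences lie between -0.25 and 0.31.

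Within 1 Mb there were 27 probes besides Gm12695. Of these, 17 were tested, for 8 genes and several nameless transcripts, and 0 were called, against 1.51% of all tested probes. Their differences ran from -0.25 to 0.32, with 10 positive and 7 negative. In 2 of the 17 (11.8%) the arrays of the genotypes did not overlap, against 12.4% of all tested probes. R6/2 was the higher in both, where the background is 6.19%. They were NAP111903-1 and a probe of Hook1, an adaptor between cargo and the dynein motor. Hook1 read -1.11, -1.05, -1.06 and -0.86 in R6/2 and -1.26, -1.15, -1.31 and -1.15 in WT, a difference of 0.20 ± 0.08 (limma adjusted p = 0.260), and its other probe differed by 0.08 ± 0.09.

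The spread between arrays set bounds on these differences. The standard errors of the 17 probes ran from 0.0751 to 0.325. The lowest end of any 95% interval was -0.85, for the lincRNA probe, and the highest was 0.84, for 9530080O11Rik, which is 1.80-fold lower and 1.79-fold higher. Of the 27, 6 were not well above background on any array, and a change below the detection limit of those probes could not be measured.

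**Figure D2:**
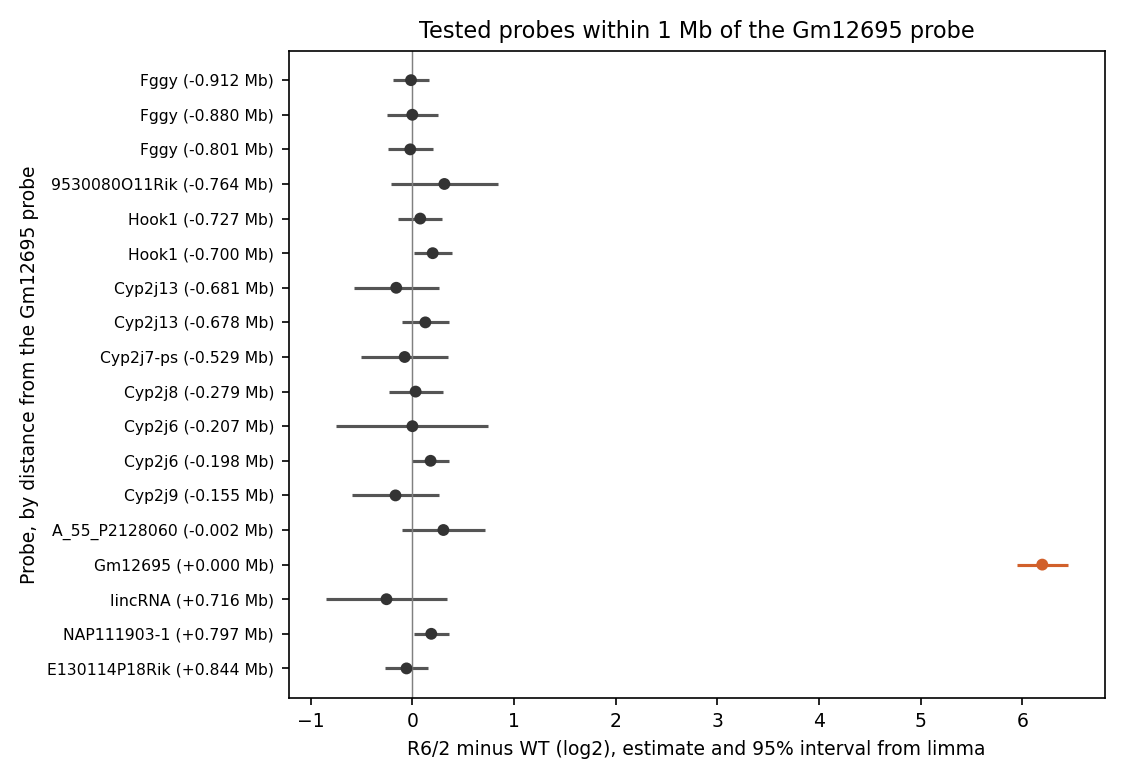
Fitted R6/2 minus WT difference (log2) of the 18 tested probes within 1 Mb, Gm12695 included, ordered by distance. Points are limma estimates from 4 arrays per genotype and bars their 95% intervals. The 17 neighbours have estimates between -0.25 and 0.32, and Gm12695 lies at 6.20.

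Across the window, 390 probes could be tested, those flagged well above background by the scanner software on 4 arrays or more. Gm12695 was the 1 probe called at an adjusted p below 0.05 (0.256% of the 390), against 1.51% of all probes tested on the array. It was called higher, as were 0.367% of all probes, and 0 window probes were called lower, against 1.14%. The rest of chromosome 4 had 38 of 1846 called (2.06%) and the other chromosomes 487 of 32645 (1.49%). The differences between these shares were not tested.

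The count in the window was 4 with normexp background correction (1.03%, against 2.79% on the array) and 7 with array weights (1.79%, against 3.20%). It was 2 without WT 1 (0.513%, against 0.481%) and 3 without WT 3 (0.769%, against 1.44%). Over all settings tried, 9 window probes were called at least once, and the nearest of them to Gm12695 lay 6.30 Mb away. Pairing the arrays by replicate number left 1 probe called in the window and 0.806% on the array. Outside the window, the nearest called probes on the same chromosome were ENSMUST00000153865, 34.9 Mb before the site (-3.14 ± 0.37, limma adjusted p = 0.0129), and Ppih, which encodes a spliceosomal cyclophilin, 22.6 Mb after it (1.04 ± 0.18, adjusted p = 0.0419).

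Looser thresholds gave shares near those of the whole array. An unadjusted p below 0.05 was found for 63 probes (16.2%), 32 higher and 31 lower, against 17.0% of all probes. The arrays of the genotypes did not overlap in 43 probes (11.03%), against 12.4%, with R6/2 above in 25 and below in 18, where the background is 6.19% in each direction. A fitted difference of 1.5-fold or more was found for 18 probes (4.62%), against 5.59%. The median difference was 0.02, against 0.01 over all probes, with quartiles of -0.15 and 0.13 (all probes -0.14 and 0.13).

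**Figure D3:**
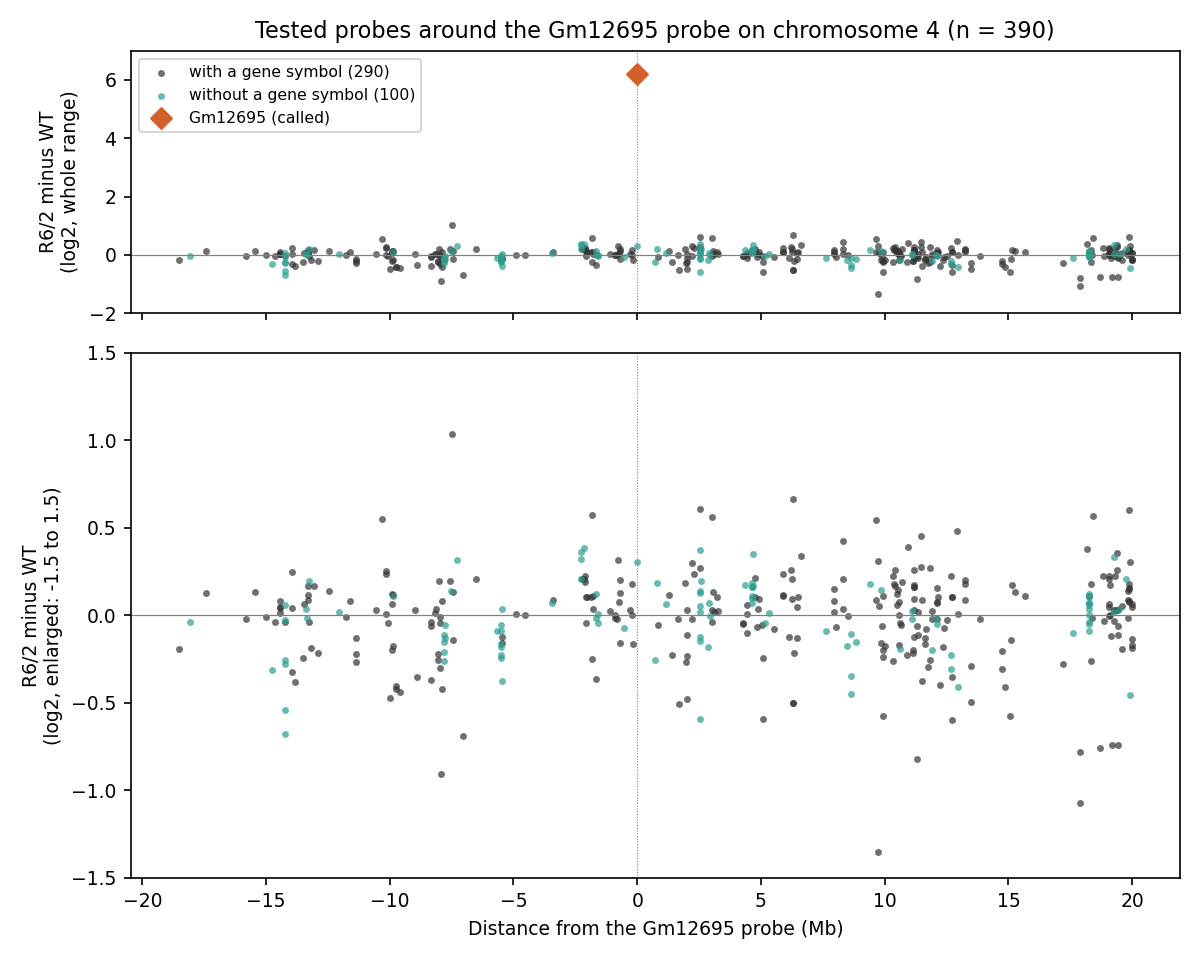
Fitted R6/2 minus WT difference (log2) of the 390 tested probes against distance from the Gm12695 probe (Mb), on the full scale above and enlarged to -1.5 to 1.5 below. Grey points carry a gene symbol (290), green points do not (100). Gm12695 stands at 6.20 and the other 389 probes lie within the enlarged scale at all distances.

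With distance, the sign of small differences varied from stretch to stretch. Of 51 tested probes 10 to 5 Mb before the site, 16 had a positive difference and 35 a negative one, with a median of -0.12. Of 26 probes 5 to 1 Mb before it, 21 were positive and 5 negative, with a median of 0.10. From 1 to 5 Mb after it, 36 of 54 were positive, with a median of 0.06.

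Taking the 97 probes within 5 Mb on both sides without Gm12695, 67 were positive and 30 negative, with a median of 0.07. Positive differences numbered 60 with array weights and 74 with quantile normalization, which also moved the share over all probes from 51.9% to 57.7%. Farther out, 10 to 20 Mb after the site, 79 of 145 were positive, and 20 to 10 Mb before it, 24 of 48. Neighbouring probes often belong to 1 gene or transcript and are not separate observations, so these counts are a description without a test.

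The share of probes at an unadjusted p below 0.05 was lowest 20 to 10 Mb before the site, at 4.17% of 48, and among the well-filled stretches highest 10 to 20 Mb after it, at 22.8% of 145. It was 10.3% within 5 Mb, without Gm12695, against 17.0% over all probes. The 1 Mb directly after the site had 3 tested probes and its share, 33.3%, rests on 1 of them.

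**Figure D4:**
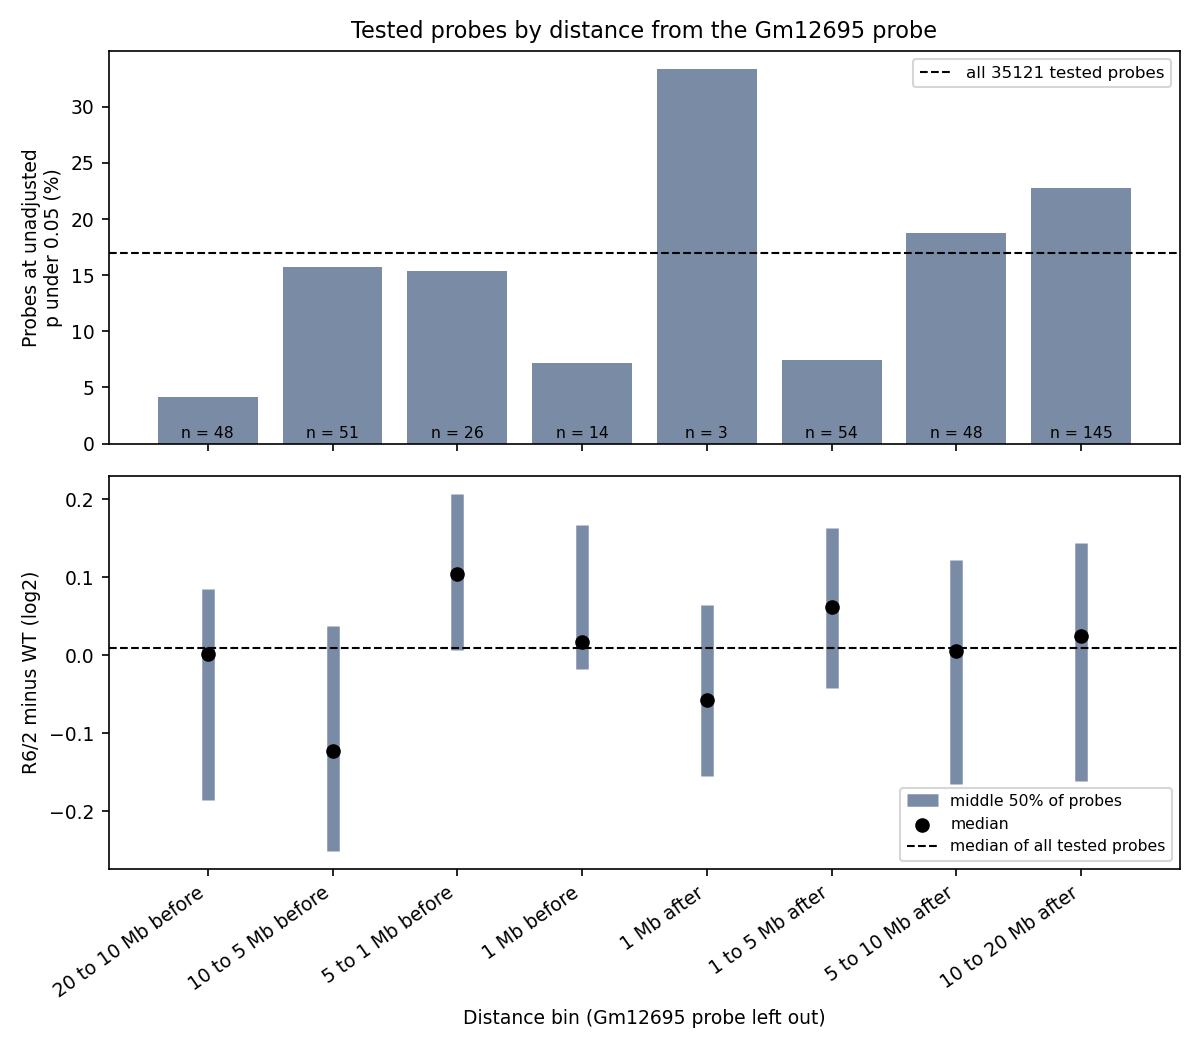
Tested probes by stretch of distance from the Gm12695 probe, which is left out. The upper panel gives the percent of probes at an unadjusted p below 0.05 with the number tested in each bar and the value of all 35121 probes (17.0%) as a dashed line. The lower panel gives the median (point) and middle 50% (bar) of the log2 differences. The medians lie between -0.12 and 0.10.

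Probes without a gene symbol were examined in the same way. Of the 278, 100 were tested, 0 were called, against 0.868% of nameless probes on the whole array, and 8 (8.00%) had an unadjusted p below 0.05, against 14.3%. Of the 62 tested lincRNA probes, 4 (6.45%) had such a p, all lower in R6/2, against 13.7% of lincRNA probes on the array. Of the 38 tested probes with only a transcript or probe identifier, 4 (10.5%) had such a p, 2 in each direction, against 15.6% of their class on the array.

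The nameless probes of smallest p were all uncalled. TC1780716, 19.9 Mb after the site, read -2.71, -2.49, -2.40 and -2.74 in R6/2 and -2.28, -2.10, -1.89 and -2.24 in WT. The groups did not overlap, as in 12.4% of all tested probes, which goes with the choice by p. The difference was -0.45 ± 0.12 (limma adjusted p = 0.104). A_55_P1985313, 12.9 Mb after, differed by -0.41 ± 0.13 (adjusted p = 0.161). The lincRNA probes with the smallest p, at 12.7 Mb and 2.85 Mb after the site, differed by -0.30 ± 0.10 (adjusted p = 0.186) and -0.18 ± 0.06 (adjusted p = 0.197).

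Among the probes that could not be tested, 292 in all, 199 were not well above background on any array. Another 7 were detected on at least 2 R6/2 arrays and 0 WT arrays, and 6 the other way round. Over the whole array these patterns occurred in 412 and 256 of 20560 untested probes. The brightest of the 7, ENSMUST00000145411 at 1.69 Mb before the site, read -1.28 on R6/2 array 3 and -7.21, -7.30 and -4.92 on R6/2 arrays 1, 2 and 4. The WT arrays read -5.88, -7.23, -4.88 and -7.47, so that its signal rests on 1 array.

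The 9 probes of smallest p in the window after Gm12695 lay 6.30 Mb or more from it, and none was called in the reported fit. They were picked by p, so the lack of overlap given for them goes with the choice and is no separate result. Under other settings Insl5 and Cyp4a12b were called in 4 each, Slc24a2 in 3, Oma1 in 2, and Lrrc41 in 1. Insl5, an insulin-like peptide known as a gut hormone, lay 6.30 Mb after the site. It read -2.15, -2.31, -2.20 and -2.26 in R6/2 and -1.95, -1.65, -1.56 and -1.76 in WT. The groups did not overlap, and the difference was -0.50 ± 0.10 (limma adjusted p = 0.0509).

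Slc24a2, a neuronal potassium-dependent sodium and calcium exchanger, lay 9.57 Mb before the site. That probe read -0.87, -0.87, -1.10 and -1.09 in R6/2 and -0.50, -0.52, -0.65 and -0.51 in WT, a difference of -0.44 ± 0.08 (limma adjusted p = 0.0515). The groups did not overlap. All 3 tested probes of Slc24a2 had an unadjusted p below 0.05, with differences from -0.44 to -0.40.

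Oma1, a protease of the inner mitochondrial membrane, read -2.64, -2.74, -2.51 and -2.76 in R6/2 and -2.97, -3.03, -3.01 and -3.01 in WT, 6.604 Mb after the site. The WT arrays were nearly equal and all below R6/2, with a difference of 0.34 ± 0.07 (limma adjusted p = 0.0683). Usp24, which removes ubiquitin from proteins, differed by 0.31 ± 0.08 at 9.72 Mb (adjusted p = 0.0902), again without overlap. Its other 2 tested probes were at 0.55 ± 0.15 and 0.09 ± 0.10.

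Tut4, which adds uridines to RNA, and Prpf38a, a spliceosome component, lie close together, both 11.8 Mb after the site. Tut4 read 1.75, 1.76, 1.79 and 1.72 in R6/2 and 2.05, 2.16, 2.02 and 1.96 in WT, a difference of -0.29 ± 0.07 (limma adjusted p = 0.0774). Prpf38a read 1.62, 1.74, 1.58 and 1.64 in R6/2 and 1.44, 1.42, 1.31 and 1.33 in WT, a difference of 0.27 ± 0.07 (adjusted p = 0.0938). Neither overlapped between genotypes, and the neighbours had opposite signs.

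At the far end, Trabd2b, which cleaves and inactivates Wnt proteins, differed by -0.78 ± 0.17 at 17.9 Mb (limma adjusted p = 0.0718). It was dim, at -5.01, -5.23, -5.80 and -5.38 in R6/2 and -4.73, -4.62, -4.30 and -4.64 in WT, and well above background on 2 R6/2 arrays. With normexp background correction the difference was -0.20. Its other tested probe differed by -1.07 ± 0.33. Lrrc41, a substrate adaptor of a ubiquitin ligase, read 0.28, 0.33, 0.34 and 0.34 in R6/2 and 0.09, 0.08, -0.02 and 0.10 in WT, 19.4 Mb after the site. The groups did not overlap, with a difference of 0.26 ± 0.06 (adjusted p = 0.0825). The authors' deposited table lists Lrrc41 as up, with a fold of 1.21 and an adjusted p of 0.0460. It was the only window probe besides Gm12695 below 0.05 in that table.

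**Figure D5:**
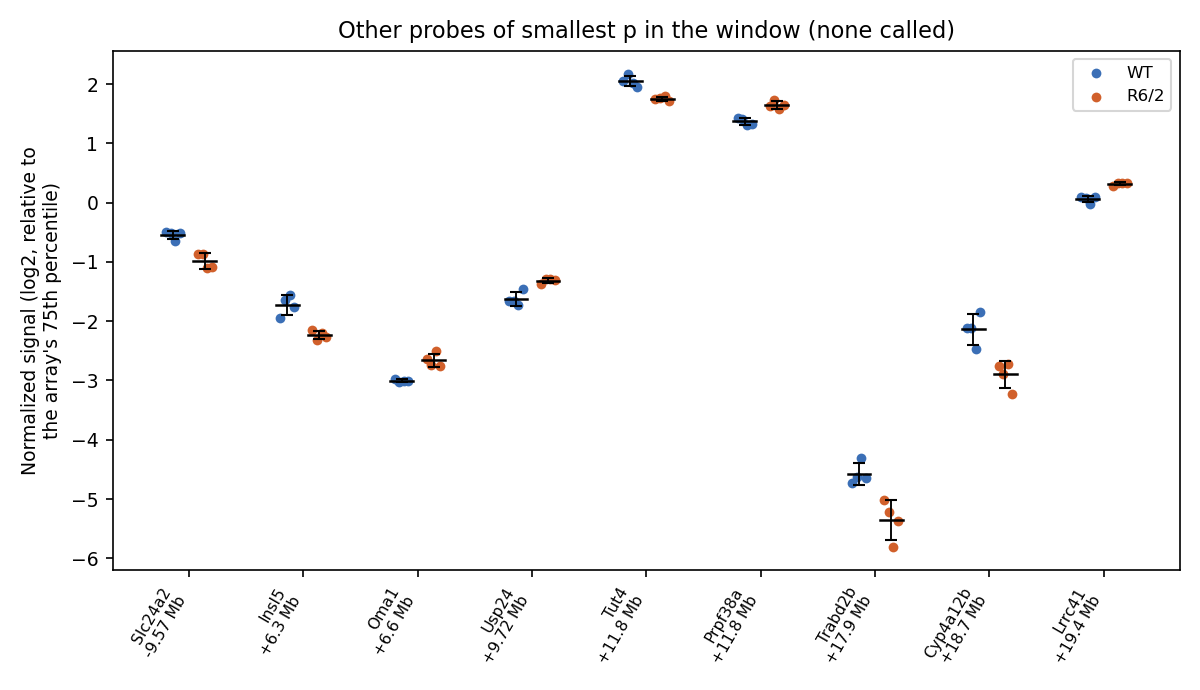
Normalized log2 signal of the 9 window probes of smallest p after Gm12695, ordered by position. Points are arrays (4 WT, 4 R6/2), lines the mean and bars the SD. In each the genotypes do not overlap, against 12.4% of all tested probes. Because the probes were picked by p, this goes with the choice and is no separate result. Of the 9, 5 are lower in R6/2 and 4 higher, and limma adjusted p runs from 0.0509 to 0.0938.

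Read by function, each gene list of the window had 0 called probes, against 1.51% of all tested probes. With 4 to 54 tested probes per list, a count of 0 sets no list apart from the array. Among type I interferon genes, whose products are secreted in the antiviral response, 16 probes covered 13 genes and 7 probes were tested, with a median difference of -0.22. Ifna11 read -4.02, -4.15, -3.26 and -3.68 in R6/2 and -3.48, -2.14, -2.61 and -3.26 in WT. The groups overlapped, and the difference was -0.91 ± 0.32 (limma adjusted p = 0.201). These genes are near copies of each other, so a probe cannot be tied to 1 of them with certainty.

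In the Cyp4 cluster, which encodes fatty acid omega-hydroxylases, 14 probes covered 11 genes and 4 probes were tested. Cyp4a12b, 18.7 Mb after the site, read -2.75, -2.89, -2.72 and -3.23 in R6/2 and -2.12, -2.12, -2.47 and -1.84 in WT. R6/2 lay below WT without overlap, by -0.76 ± 0.16 (limma adjusted p = 0.0630). Cyp4x1, at 18.4 Mb, lay on the other side, at -4.85, -4.85, -4.73 and -4.15 in R6/2 and -4.99, -5.33, -5.30 and -5.24 in WT, a difference of 0.57 ± 0.17 (adjusted p = 0.143), or 0.092 with normexp background correction. The Cyp4x1 probe was well above background on 4 R6/2 arrays and 1 WT array. It became testable through R6/2, and its difference is set against WT values mostly below background. Cyp4a members also share sequence.

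In the list named neuronal, whose members were not checked for expression in neurons, 63 probes covered 26 genes and 54 probes were tested. An unadjusted p below 0.05 was found for 8 probes (14.8%, 2 higher and 6 lower), against 17.0% of all probes. The 3 tested probes of Slc24a2 were among the 6. Differences were positive for 23 probes and negative for 31, with a median of -0.04. In the same bulk RNA, markers of striatal projection neurons were lower in R6/2, with a negative difference in 9 of 10. Of the 10, 5 were called, against 1.51% of all tested probes. Their summed level was 377 to 508 in R6/2 and 692 to 785 in WT. All 10 were well above background on all 8 arrays. Fewer cells of a type and less RNA per cell cannot be told apart here, and the part of this shift in the listed genes of the window was not tested.

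Markers of neighbouring tissue and of other cell types were also looked at, beside the 1.51% called among all tested probes. The 6 cortical markers had 0 called and 6 negative differences, with a summed level of 7.62 to 16.7 in R6/2 and 11.4 to 17.9 in WT. Choroid plexus markers (7 tested, 6 of them well above background on all 8 arrays, 0 called) varied widely between arrays of both genotypes. Their summed level ran from 46.6 to 186 in R6/2 and from 55.7 to 243 in WT. Markers of oligodendrocytes, astrocytes, microglia and endothelial cells had 0 called in each set, with median differences of -0.02, -0.05, -0.05 and -0.09. The part of any of these markers in the window's values was not tested.

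Cell cycle and DNA repair genes had 14 tested probes, a median of 0.09, and 1 (7.14%) at an unadjusted p below 0.05, against 17.0% of all probes. That was Cdkn2a, which encodes the cell cycle inhibitors p16INK4a and p19ARF. It was dim, at -4.08, -4.81, -4.37 and -3.80 in R6/2 and -5.30, -6.40, -4.42 and -5.08 in WT, and well above background on 2 WT arrays. WT array 3 lay within the R6/2 range, and the difference was 1.04 ± 0.40 (limma adjusted p = 0.243). It was 0.67 without WT 2 and 0.15 with normexp background correction. Rad54l, which acts in homologous recombination, differed by 0.35 ± 0.16 (adjusted p = 0.323).

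Lipid and sterol genes had 21 tested probes and a median of -0.00. Echdc2, a mitochondrial protein related to enoyl-CoA hydratases, differed by 0.45 ± 0.14 (limma adjusted p = 0.146). WT array 3, at 1.61, reached the R6/2 range of 1.55 to 1.75, and the other WT arrays read 1.03 to 1.11.

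Transcription factor genes had 17 tested probes and a median of 0.03. Jun, a subunit of the AP-1 factor that responds to neuronal activity and stress, lay 1.67 Mb before the site. It read 2.44, 2.65, 2.42 and 2.41 in R6/2 and 2.91, 2.99, 2.75 and 2.73 in WT. The groups did not overlap, as in 12.4% of all tested probes, which goes with the choice of Jun by p. The difference was -0.36 ± 0.09 (limma adjusted p = 0.0981). Glis1, a zinc finger factor, differed by -0.23 ± 0.08 at 10.9 Mb (adjusted p = 0.214).

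Some genes were read by several probes. Of 70 genes with at least 2 tested probes, all probes had 1 sign in 41 genes (58.6%), against 68.4% of the 5314 such genes on the array. At least 1 probe had an unadjusted p below 0.05 in 17 genes (24.3%, against 29.3%), and every probe did in 3 (4.29%, against 7.17%): Slc24a2, Trabd2b, and Gpbp1l1 with differences of 0.15 and 0.18. In 0 genes did probes reach that level with opposite signs.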

How the data were processed

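The authors deposited one scanner file per array (Agilent Feature Extraction 10.7.3.1, per the file headers), which holds the processed signal as an intensity, already background-subtracted, with positions on mm9. They also deposited a value table on a log2 scale and a table of their own comparison with linear fold ratios and p-values. Each array's values in the value table equalled log2 processed signal minus a constant, within 0.01 for 100% of probes, so its scale and direction are known.

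Here the log2 processed signal was centred on each array's 75th percentile over probes other than controls, outlier spots were left out and spots of a probe averaged. Probes well above background on at least 4 of 8 arrays were fitted with limma 3.58.1 (lmFit, eBayes) in R 4.3.3, with Benjamini-Hochberg adjustment over 35121 probes and a call at 0.05. The number of arrays limits the precision. The script was tested on simulated data. Summaries used Python 3.11.15.

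Symbols came from RefSeq (GRCm38.p6 gene table, names only): 341 window probes matched by accession and 62 by gene number, and 1 kept the file's symbol. Longest shared runs were found by comparing all probe sequences on both strands.

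The text names Gm12695, called window probes, the 5 nearest tested probes on each side, the tested probes of smallest p up to 20 in all, and 2 per gene list of smallest p. An item that the rule named is not reported here and remains in the counts. Itgb3bp, Cyp4a10, Spata6, Hook1, 9530080O11Rik, Gpbp1l1, ENSMUST00000145411, ENSMUST00000153865, Ppih and further probes of named genes were named after their values were seen. Members, lists and tests were chosen with earlier results of these data known.

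Replicate numbers equal the slide row per the file headers. The deviations of same-numbered arrays correlated at 0.22, 0.18, 0.36 and 0.13, so the numbers were taken to pair the arrays. The reported fit leaves this pairing out of its SEs, intervals and p-values, and a fit with the number as a block was an alternative. With the block, limma adjusted p moved in both directions, from 0.104 to 0.0525 for TC1780716 and from 0.0509 to 0.0848 for Insl5. The others were normexp, quantile normalization, median centring, 2 other filters, outlier flags kept, array weights, the methods' t-test, the authors' values and each array left out.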

Additional observations from a re-analysis of the deposited data

Results flagged for a closer look

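For the probes named by the rule, the 4 arrays of each genotype were checked for 1 array that stood apart from the other 3. Of 70 such groups, 9 had one. The cut-off is passed by about 1 in 20 groups of unselected, independent normal values. Many of these probes were picked by p and some share a gene, so the count cannot be set against that rate. All values are normalized log2 signals.

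In WT, array 1 read -1.04 for Cyp2j6, against -2.66 to -2.39 on the other arrays. Array 3 stood apart for Slc24a2 at both named probes, at -0.65 against -0.52 to -0.50 and at 0.85 against 1.11 to 1.16, and for Echdc2 at 1.61 against 1.03 to 1.11.

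In R6/2, array 4 stood above the others for Nfia, at -3.97 against -4.50 to -4.42, and for Cyp4x1, at -4.15 against -4.85 to -4.73. Array 1 stood below for Lrrc41, at 0.28 against 0.33 to 0.34, and for Usp24, at -1.37 against -1.30 to -1.29. Array 2 stood above for Jun, at 2.65 against 2.41 to 2.44.

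Outside the tested probes, 7 of the window were well above background on at least 2 R6/2 arrays and on 0 WT arrays. The brightest single value among them was -1.28, for ENSMUST00000145411 on R6/2 array 3.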

How the results depend on the processing

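Of 18 alternatives, Gm12695 was tested in 17 and called in all 17, with differences of 2.15 to 6.27, and 6.10 to 6.24 with an array left out. Each of these fits set R6/2 against WT values at background, for a probe chosen with its signal known. The calls and adjusted p-values of Gm12695 are therefore no separate support for its difference. Requiring detection on all 8 arrays removed it from the test and left 0 called within 5 Mb and 3 in the window, none of them Gm12695. The number of window probes called was 1 as reported, 4 with normexp, 2 with quantile normalization, 2 without a filter on dim probes, 7 with array weights, 2 with the methods' t-test and 1 to 3 with an array left out (2 without WT 1, 3 without WT 3). On the array, 1.51% were called as reported, 2.79% with normexp, 1.64% with quantile normalization and 0.198% without a filter. The share was 2.25% with detection required on all 8 arrays, 3.20% with array weights and 0.752% with the t-test. It was 0.481% without WT 1 and 1.44% without WT 3. With the replicate block, 1 window probe was called, the adjusted p of Gm12695 was 7.25e-04, and no other window call changed. Within 5 Mb the count was 1 in every other alternative.

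For the 34 other named probes, 319 values outside the array-wise runs kept sign and side, 13 passed the threshold and 3 turned sign: Cyp2j6 with normexp (-0.053) and array weights (-0.062), and E130114P18Rik with quantile normalization (0.0043). With an array left out, 10 turned sign: Cyp2j6 ranged from -0.18 to 0.36, Cyp2j8 from -0.030 to 0.14, Cyp2j9 from -0.28 to 0.027, D4Ertd681e from -0.017 to 0.14 and Nfia from -0.038 to 0.19. The cause was not tested. Normexp, which adds an offset of 50, brought 18 of the 34 closer to 0 by over 1.5 times, and leaving out an array moved 12 by as much or turned their sign. Calls were gained by Insl5 and Cyp4a12b (normexp, the filter on all 8 arrays, array weights, and without WT 1 or WT 3, respectively), Slc24a2 (the first 3 of these), Oma1 (quantile, weights), Echdc2 (weights, without WT 3), the Usp24 probe at 9.64 Mb (weights), Lrrc41 (t-test) and Cyp4b1 (no filter). Probes below background give no measure of change, and a slide or scan block was not run because there was 1 slide and 1 scan.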
